A study of Homo sapiens with 12 samples.

Results

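Newly made secretory and membrane proteins enter the endoplasmic reticulum (ER) through a channel, are cut by signal peptidase, receive sugar chains from oligosaccharyltransferase and leave for the Golgi in COPII-coated vesicles. The genes described here encode 53 parts of that route, taken by name with earlier results of these data known. Shares of these genes set beside those of all genes therefore describe the list and do not test it. Each of the 53 was listed in the tables of all 3 experiments and had a mean of at least 1 FPKM (fragments scaled to transcript length and library size) over the 11 libraries used, among 11075 such genes and 23153 genes listed in all 3 tables. They fall into 7 roles: 9 genes of the translocation channel and its partners, 4 of the translocon-associated protein complex, 8 of the signal recognition particle (SRP) and its receptor, 5 of signal peptidase, 6 of oligosaccharyltransferase, 12 of the COPII coat and its regulators, and 9 cargo and retrieval receptors.

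Messenger RNA was sequenced from K562, an established human erythroleukemia line, grown with or without fatty acids. Palmitate has a saturated chain, and palmitoleate has a chain of the same length with a single double bond. RNA of 3 biological replicates was pooled before each library was made. Experiment 1 had WT cells untreated, given palmitate, or given palmitoleate. Experiment 2 had WT cells untreated, given palmitate, or given palmitate and palmitoleate together, and GPAT4ko cells given palmitate. GPAT4ko cells are labelled as a knockout of GPAT4, an ER enzyme that starts glycerolipid synthesis by acylating glycerol-3-phosphate. Experiment 3 had WT and RNF213kd cells (knockdown of RNF213, a large ubiquitin ligase), both untreated and given palmitate. Palmitate was used at 0.2 mM, bound to albumin, for 20 h in the labels and 16 h in the legends deposited with experiments 2 and 3. The mixture held 0.2 mM palmitoleate, and the dose of palmitoleate given alone is not stated in the sources used here. How the knockout and knockdown were made, and from how many clones, is not given in the sources used here either. Untreated and palmitate-treated WT cells thus had 3 libraries each and the other groups 1 library each. An untreated GPAT4ko library is labelled but no values stand under its name. The legend of the experiment 2 table lists a library of another name as GPAT4-ko with no fatty acid, and that library was not analysed here because its name matches no label.

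Facts of the whole data set bear on all that follows. Summed FPKM ran from 612355 to 821188 over the 11 libraries, each had 10495 to 11108 genes with at least 1 FPKM, and the read depth behind them is unknown. All 8 erythroid markers read were expressed (summed level 4780 to 16400 FPKM). Of the markers of 6 other cell types, CD3D, LYZ, EPCAM and COL1A2 had a median of at least 1 FPKM (summed levels of 12.1 to 40.8 FPKM for T cells, 20.1 to 57.9 for monocytes, 13.6 to 62.3 for epithelium and 0.203 to 3.04 for fibroblasts). MS4A1, KRT5, KRT14, CDH5 and KDR were listed at 0 in all 11 libraries, and the B cell and endothelial markers summed to less than 1 FPKM in every library. GPAT4 (AGPAT6 in the tables) was at 20.0 FPKM in WT and 8.77 FPKM in GPAT4ko cells under palmitate, and between 11.8 and 21.0 FPKM in the other libraries. On the log2(FPKM + 1) scale the ratio of GPAT4ko to WT cells for GPAT4 was -1.10 (95% interval -1.92 to -0.28). RNF213 was at 1.96 and 1.39 FPKM in untreated WT and RNF213kd cells, and at 3.08 and 1.54 FPKM under palmitate. The log2 ratios of RNF213kd to WT cells were -0.31 (-1.31 to 0.69) and -0.68 (-1.68 to 0.32), so both intervals include 0. Each of these ratios rests on single libraries. The level of RNF213 in the 8 WT libraries ran from 1.49 to 6.26 FPKM, so the palmitate-treated knockdown library lay above the lowest WT one, though in a table scaled separately. In bulk RNA, fewer cells making a transcript and less of it per cell cannot be told apart.

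Signal recognition particle binds the signal sequence of a nascent chain and docks on its receptor at the ER. The chain then passes into the Sec61 channel, where signal peptidase and oligosaccharyltransferase act on it as it emerges. COPII vesicles form when the GTPase SAR1 recruits SEC23-SEC24, which selects cargo, and then SEC13-SEC31. Receptors of the KDEL type bring escaped ER residents back. Many genes of this route are known targets of the unfolded protein response, through the transcription factors XBP1 and ATF6.

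Palmitate raised 18 of the 53 members in WT cells and lowered 0 (limma, Benjamini-Hochberg adjusted p under 0.05, 3 within-experiment ratios). Of all tested genes, 6.59% were called higher and 3.84% lower. SEC24D, a cargo-selecting COPII subunit, had the largest ratio among the members, followed by KDELR3, a retrieval receptor, and TRAM1, a partner of the channel. The median of the 53 mean log2 ratios, each taken on FPKM + 1, was 0.71, against -0.06 for all tested genes. By experiment, the members' median was 0.84, 0.78 and 0.65. The ratio was above 0 in all 3 experiments for 43 members (81.1%, against 25.9% of tested genes), and below 0 in all 3 for 0 members (29.6% of tested genes). The mean log2 ratio was above 0 for 50 members (45.8% of tested genes). A mean log2 ratio of 1 or more was reached by 14 members, where 7.21% of tested genes reached it. An unadjusted p under 0.05 was found for 36 members, each with a higher level under palmitate, where 15.4% of tested genes had that.

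The number of calls depended on the fit. Without small RNA and SNAR genes limma called 27 members higher and 0 lower (11.3% and 11.1% of tested genes). With unpaired libraries it called 9 higher and 0 lower (2.37% and 0.47%). Without a filter on low levels it called 0 members and 0.0% of all genes. With experiment 1 or experiment 3 left out, limma called 0 members and 0.0% of tested genes (smallest adjusted p of any gene 0.0521 and 0.131). The members' median ratio in these fits was 0.74 and 0.76. In experiment 1 the ratio to palmitate fell with transcript GC content (Spearman's rho across 10620 genes -0.628, against -0.02 in experiment 2 and 0.147 in experiment 3). The members' median GC content, by the longest annotated transcript of each gene, was 43.3%, and that of all tested genes 47.6%. After that trend was removed, the members' medians were 0.69, 0.86 and 0.72 in the 3 experiments and 36 members were called higher and 0 lower (15.3% and 12.4% of tested genes).

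**Figure D1:**
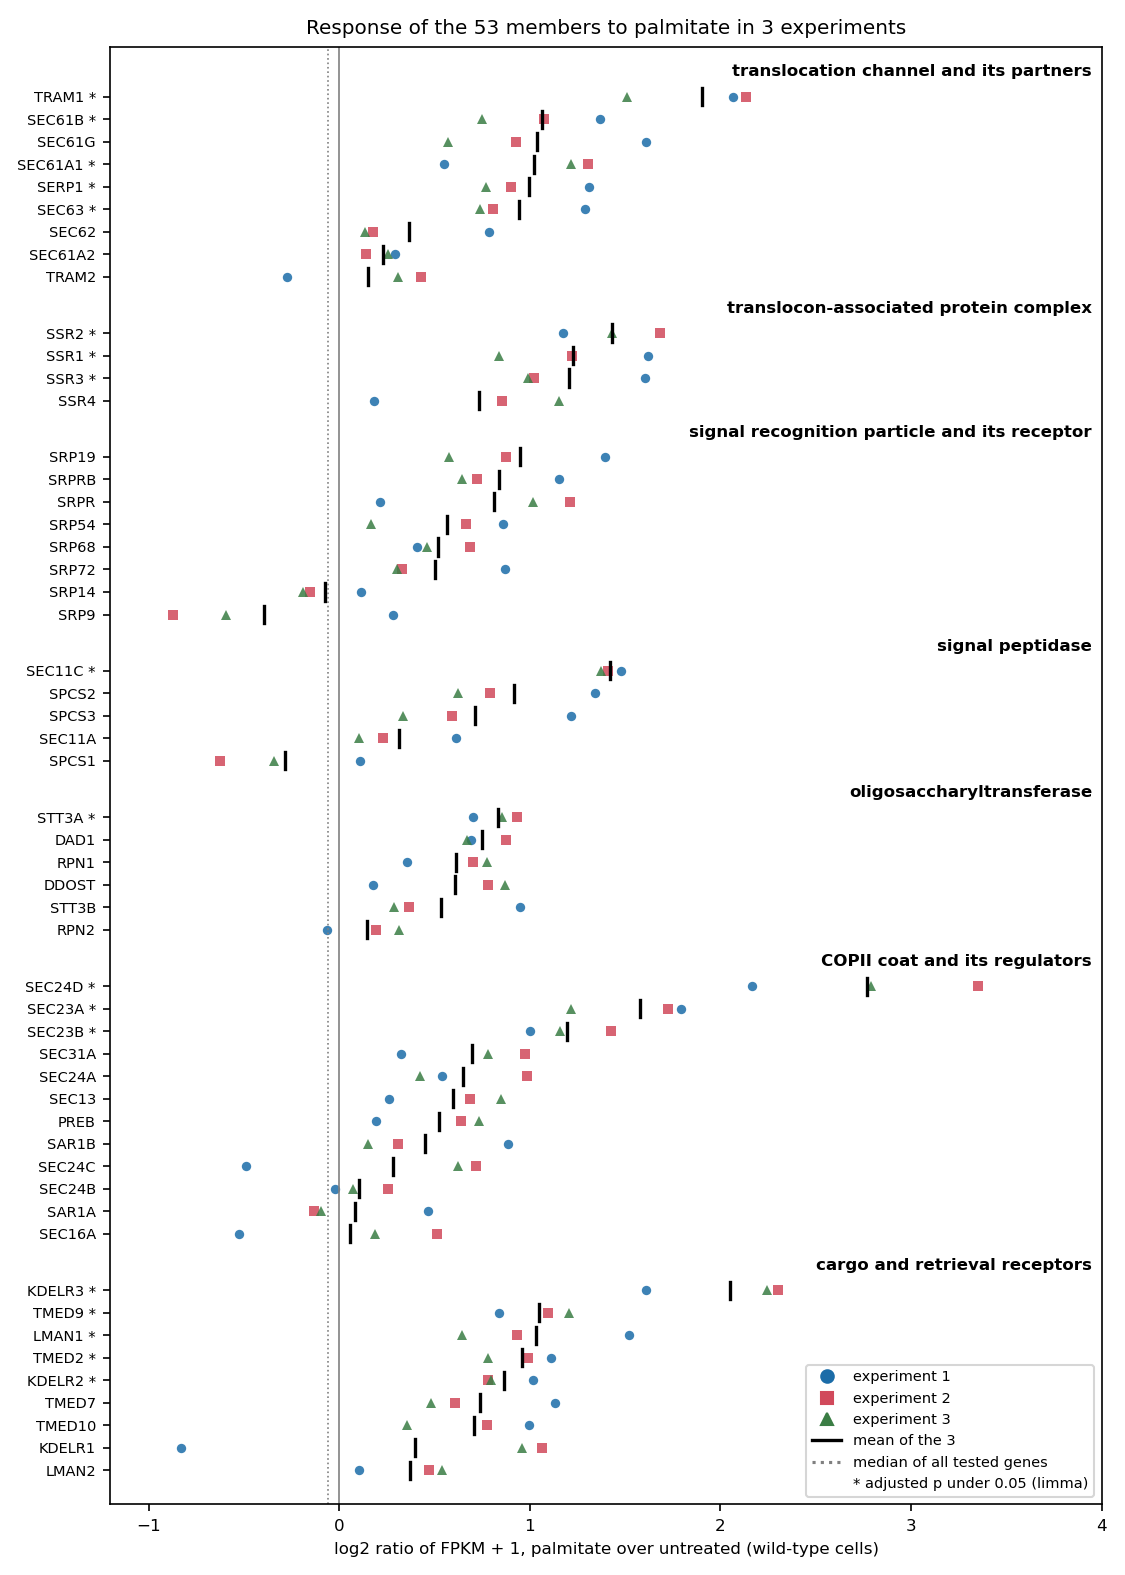
Ratio of palmitate to untreated WT cells for each of the 53 members, on the log2(FPKM + 1) scale, with 1 symbol per experiment, a bar at the mean of 3 and an asterisk at an adjusted p under 0.05. The 18 called members lie to the right of 0 in all 3 experiments, SEC24D farthest at a mean of 2.77, and SRP9, SPCS1 and SRP14 have means below 0.

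By role, the median mean ratio was highest for the translocon-associated protein complex (1.22, 3 of 4 members called) and the translocation channel (0.99, 5 of 9). Cargo and retrieval receptors followed at 0.87 (5 of 9) and signal peptidase at 0.71 (1 of 5). Oligosaccharyltransferase had a median of 0.61 (1 of 6), the COPII coat 0.56 (3 of 12) and SRP with its receptor 0.54 (0 of 8). Every called member in these counts rose, where 6.59% of all tested genes were called higher. In roles this small, a count of 0 or 1 does not set a role apart from that share. The differences between roles were not tested. Within each role except the translocon-associated complex and oligosaccharyltransferase, at least 1 member had a mean ratio more than 1 log2 unit away from that of another.

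In the channel, SEC61A1, which forms the pore, stood at 71.8, 79.9 and 49.9 FPKM in untreated WT cells of experiments 1, 2 and 3 and at 105, 199 and 117 FPKM under palmitate. The palmitate library was higher in each experiment, and the 2 sets of values did not overlap even though the tables were scaled separately. Its mean log2 ratio was 1.02 ± 0.23 (SE, n = 3, adjusted p = 0.0474). The small subunits that complete the channel were more abundant. SEC61B went from 289, 319 and 340.4 FPKM to 746, 675 and 572 FPKM (ratio 1.06, adjusted p = 0.0343), and SEC61G was at 407, 412 and 534 FPKM and at 1244, 786 and 796 FPKM (ratio 1.04, adjusted p = 0.0514, not called). SEC61A2, a paralogue of the pore subunit, was at 2.198, 2.60 and 2.14 FPKM untreated and 2.91, 2.97 and 2.75 FPKM under palmitate, a mean ratio of 0.23 that did not pass (adjusted p = 0.396). SEC61A1 therefore made up 96.6% of the summed FPKM of this pair untreated and 97.8% under palmitate.

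TRAM1, a membrane protein next to the channel that helps some chains enter, showed the largest change of this role. Its level was 45.5, 29.8 and 47.3 FPKM in the untreated libraries and 193, 134 and 137 FPKM under palmitate, with no overlap. The mean ratio was 1.90 ± 0.22 (SE, n = 3), or 3.74-fold on the FPKM + 1 scale (adjusted p = 0.0154). TRAM2, its paralogue, was at 6.24, 6.36 and 4.63 FPKM untreated and 4.99, 8.90 and 5.97 FPKM under palmitate, lower in experiment 1 and higher in the other experiments (ratio 0.15, adjusted p = 0.67). SEC63, which joins the channel to the chaperone BiP (HSPA5), rose by 0.94, and SERP1, a stress-associated channel protein, by 0.99 (adjusted p = 0.0482 and 0.0409). SEC62, a partner of SEC63, had a ratio of 0.37 that did not pass.

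The translocon-associated protein complex, which assists the channel with some signal sequences, was higher under palmitate for each of its 4 genes in each experiment. SSR2 went from 178, 149 and 119 FPKM to 404, 479.7 and 323 FPKM (ratio 1.43 ± 0.19, SE, n = 3, adjusted p = 0.0207). SSR1 went from 22.7, 20.0 and 24.2 FPKM to 71.8, 47.9 and 44.04 FPKM (1.23 ± 0.23, adjusted p = 0.034). SSR3 rose by 1.21 (adjusted p = 0.0311). For all 3 genes each palmitate library was above each untreated one. SSR4 was at 368, 327 and 196 FPKM untreated and 418, 592 and 437 FPKM under palmitate, a smaller ratio in experiment 1 (0.19) than in experiments 2 and 3 (0.86 and 1.15), and did not pass (mean 0.73, adjusted p = 0.0991). Its longest annotated transcript was 60.8% GC, and with the GC trend removed its ratio in experiment 1 was 0.96.

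In SRP and its receptor 0 of 8 members passed, where 6.59% of all tested genes were called higher. An unadjusted p under 0.05 (limma) with a higher level was found for 5 of the 8 (15.4% of tested genes). SRPR, SRPRB and SRP19 had an adjusted p under 0.05 when small RNA genes did not enter the fit (11.3% of tested genes called higher). SRP19, which binds the particle's RNA, was at 32.7, 39.8 and 52.0 FPKM untreated and at 87.6, 73.9 and 78.1 FPKM under palmitate (ratio 0.95, adjusted p = 0.0552). SRPRB, the membrane-anchored receptor subunit, was at 23.0, 27.4 and 24.0 FPKM and at 52.4, 45.9 and 38.1 FPKM (0.84, adjusted p = 0.0578). Both were higher under palmitate in each experiment, without overlap. The other receptor subunit, SRPR, had a ratio of 0.81, and the targeting subunits SRP54, SRP68 and SRP72 had ratios of 0.50 to 0.56.

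SRP9 and SRP14, the pair that binds the Alu domain of the SRP RNA and slows elongation, had mean ratios below 0. SRP9 was at 456, 494 and 680.1 FPKM untreated and 555, 269 and 449.7 FPKM under palmitate. It was higher in experiment 1 and lower in experiments 2 and 3 (mean -0.395, 95% interval -1.04 to 0.25, adjusted p = 0.343). SRP14 was at 359, 287 and 310.0 FPKM untreated and 389, 259 and 271 FPKM under palmitate (mean -0.08, -0.52 to 0.37, adjusted p = 0.795). Neither passed, and the groups overlapped for both. They were nevertheless the most abundant mRNAs of this role in each of the 11 libraries.

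Signal peptidase holds 1 of 2 catalytic subunits, SEC11A or SEC11C. SEC11C was at 38.9, 57.3 and 48.2 FPKM untreated and at 110.2, 154 and 126 FPKM under palmitate. Its ratios in the 3 experiments, 1.48, 1.41 and 1.37, were the most alike of any called member (mean 1.42 ± 0.18, SE, n = 3, adjusted p = 0.0189). SEC11A was the more abundant at 153, 133 and 162 FPKM and stood at 235, 156 and 174 FPKM under palmitate (0.32, adjusted p = 0.314). SEC11C thus held 24.5% ± 5.13 (SD, n = 3) of the pair's summed FPKM untreated and 41.3% ± 8.94 under palmitate, higher in 3 of 3 experiments. A 2-sided exact permutation test that kept the pairs of each experiment gave p = 0.25, the smallest that 3 pairs allow. Of the accessory subunits, SPCS2 was at 46.4, 32.2 and 57.3 FPKM and at 119, 56.6 and 88.7 FPKM (0.92, adjusted p = 0.0548), and SPCS3 had a ratio of 0.71. SPCS1 was at 107, 126 and 101.1 FPKM untreated and 115, 81.4 and 79.7 FPKM under palmitate, lower in experiments 2 and 3 only (mean -0.29, 95% interval -0.82 to 0.25, adjusted p = 0.403).

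Oligosaccharyltransferase moves a preassembled sugar chain onto asparagine residues. STT3A, the catalytic subunit of the form that works at the channel, was at 110.4, 86.1 and 72.2 FPKM untreated and 181, 165 and 131 FPKM under palmitate. It was higher in each experiment without overlap (ratio 0.83 ± 0.18, SE, n = 3, adjusted p = 0.0465). STT3B, catalytic in the form that glycosylates skipped sites, was at 54.1, 67.0 and 60.7 FPKM and at 105, 86.6 and 74.4 FPKM and did not pass (0.53, adjusted p = 0.155). STT3A held 59.2% ± 6.90 of this pair's FPKM untreated and 64.2% ± 1.27 under palmitate (SD, n = 3), higher in 2 of 3 experiments. DAD1, a small shared subunit, was at 193, 135 and 134 FPKM and at 313, 249 and 215 FPKM (0.75, adjusted p = 0.0536). RPN1 and DDOST had ratios of 0.61 each. RPN2 had the smallest ratio of this role, at 158, 191 and 126 FPKM untreated and 151, 219 and 157 FPKM under palmitate (0.15, adjusted p = 0.617).

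In the COPII coat the cargo-selecting SEC24 family differed among its 4 members. SEC24D (hg19 chr4:119643978-119757326) stood at 8.23, 6.48 and 5.80 FPKM untreated and at 40.5, 75.2 and 46.1 FPKM under palmitate. Each palmitate library was several times above each untreated one, and the mean ratio was 2.77 ± 0.28 (SE, n = 3), or 6.82-fold on the FPKM + 1 scale (adjusted p = 0.0132). For scale, HSPA5, the main ER chaperone, had a ratio of 3.07 (adjusted p = 0.012). SEC24C, the most abundant of the family in untreated cells, was at 62.1, 65.1 and 36.0 FPKM and at 44.03, 108 and 56.1 FPKM under palmitate. It was lower in experiment 1 and higher in experiments 2 and 3 (mean 0.28, adjusted p = 0.531). SEC24A was at 16.2, 12.0 and 12.2 FPKM and at 24.1, 24.7 and 16.8 FPKM (0.65, adjusted p = 0.101). SEC24B was at 15.8, 14.6 and 11.3 FPKM and at 15.5, 17.6 and 12.0 FPKM (0.10, adjusted p = 0.748).

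As a share of the family's summed FPKM, SEC24D went from 7.84% ± 1.15 to 33.7% ± 1.32 (SD, n = 3), higher in 3 of 3 experiments. SEC24C went from 60.7% ± 5.62 to 42.0% ± 6.19 and SEC24B from 15.9% ± 1.30 to 9.83% ± 2.42, both lower in 3 of 3, and SEC24A from 15.6% to 14.4%. For the first 3 of these genes the same paired exact permutation test gave p = 0.25, so it cannot show a difference at 0.05. In the other libraries the SEC24D share was 12.3% with palmitoleate, 10.1% with both fatty acids, 16.8% in GPAT4ko cells given palmitate, and 9.24% and 26.1% in RNF213kd cells untreated and given palmitate. With palmitoleate SEC24D itself was not higher, at 8.07 FPKM against 8.23 FPKM untreated. SEC24C was at 30.5 FPKM against 62.1 FPKM there, which made its part of the sum smaller. The shares were not corrected for GC content.

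**Figure D2:**
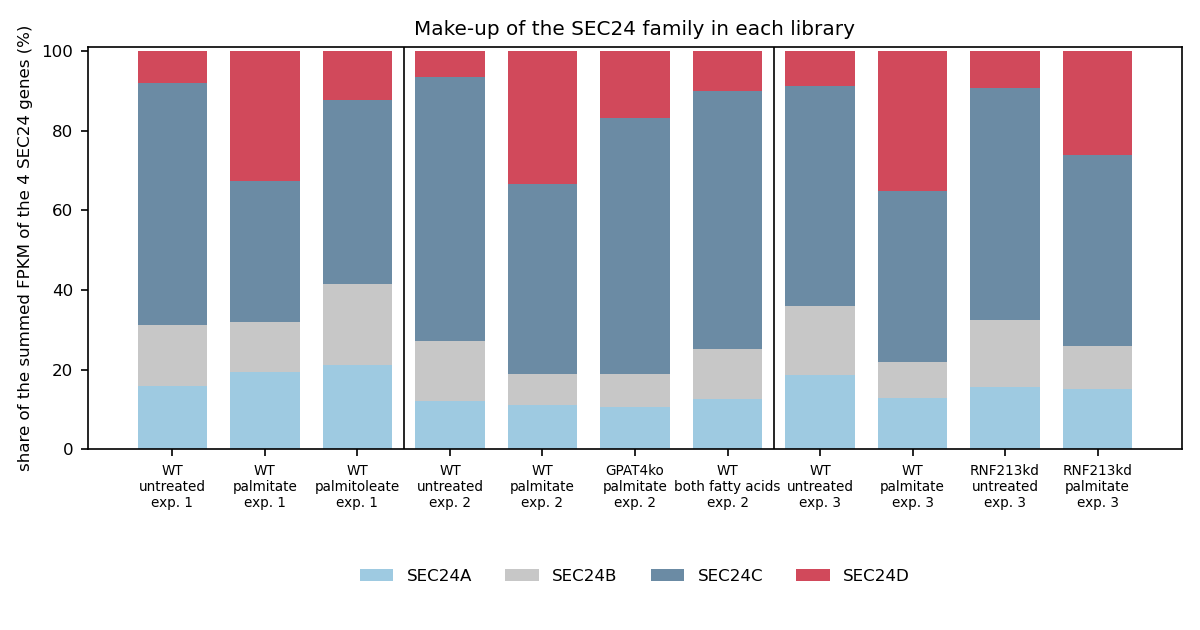
Share of each of the 4 SEC24 genes in their summed FPKM (percent), 1 bar per library, with lines between experiments. SEC24D takes 32.6 to 35.2% in the 3 palmitate-treated WT libraries and 6.60 to 8.87% in the 3 untreated ones.

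SEC23, the partner of SEC24 that activates the GTPase of SAR1, rose in both its forms. SEC23A was at 8.14, 6.62 and 9.55 FPKM untreated and at 30.7, 24.2 and 23.5 FPKM under palmitate (1.58 ± 0.22, SE, n = 3, adjusted p = 0.0215). SEC23B was at 20.3, 21.6 and 15.5 FPKM and at 41.7, 59.6 and 35.8 FPKM (1.19 ± 0.20, adjusted p = 0.0295). SEC23A went from 30.1% to 37% of the pair's summed FPKM, higher in 3 of 3 experiments (paired exact permutation p = 0.25). SAR1A and SAR1B, the GTPases that start coat assembly, did not pass. SAR1A was at 63.8, 58.7 and 58.3 FPKM and at 88.6, 53.5 and 54.6 FPKM (0.08, adjusted p = 0.816), and SAR1B was at 10.52, 10.4 and 11.9 FPKM and at 20.3, 13.1 and 13.3 FPKM (0.45, adjusted p = 0.237). PREB, the exchange factor of SAR1, had a ratio of 0.52, and the outer coat subunits SEC31A and SEC13 had 0.70 and 0.60. SEC16A, a scaffold of ER exit sites, was at 11.3, 10.8 and 7.87 FPKM and at 7.59, 15.8 and 9.11 FPKM, lower in experiment 1 and higher in the others (0.06, adjusted p = 0.894).

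Among the receptors, KDELR3 (hg19 chr22:38864083-38902345 in the tables, a locus that also takes in its antisense neighbour DDX17, whose reads cannot be told apart if counting ignored strand, which is not stated) was at 10.6, 7.80 and 4.77 FPKM untreated and 34.3, 42.4 and 26.3 FPKM under palmitate. The groups did not overlap, and the ratio was 2.05 ± 0.23 (SE, n = 3), or 4.14-fold (adjusted p = 0.0154). KDELR2 was at 48.4, 54.5 and 51.6 FPKM and at 98.97, 94.4 and 90.5 FPKM (0.87 ± 0.19, adjusted p = 0.0451). KDELR1 was at 94.2, 90.0 and 51.4 FPKM and at 52.5, 189 and 100.9 FPKM. Its ratio was -0.83 in experiment 1 and 1.06 and 0.96 in experiments 2 and 3, and the mean of 0.40 did not pass (adjusted p = 0.527). The longest annotated KDELR1 transcript is 54.5% GC, and with the GC trend removed its ratio in experiment 1 was -0.40. KDELR3 held 5.49% ± 1.29 of the 3 receptors' summed FPKM untreated and 14.5% ± 3.46 under palmitate (SD, n = 3), higher in 3 of 3 experiments (paired exact permutation p = 0.25, the smallest possible).

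LMAN1 (ERGIC-53), a lectin that carries glycoproteins out of the ER, was at 39.3, 37.3 and 49.1 FPKM untreated and 115, 72.1 and 77.4 FPKM under palmitate (1.03 ± 0.24, SE, n = 3, adjusted p = 0.0492). LMAN2, a related lectin, was at 54.3, 78.3 and 53.8 FPKM and at 58.3, 109 and 78.7 FPKM, higher in each experiment but with overlapping groups (0.37, adjusted p = 0.25). Of the p24 cargo receptors, TMED9 was at 91.2, 185 and 94.5 FPKM and at 164, 397 and 219 FPKM (1.05 ± 0.19, adjusted p = 0.0317). Its level in experiment 2 was the highest both before and after treatment, so the groups overlapped although the ratio was 0.84, 1.09 and 1.21 in the 3 experiments. TMED2 rose by 0.96 (adjusted p = 0.0368), while TMED7 and TMED10 had ratios of 0.74 and 0.71 and did not pass. TMED7 overlaps a readthrough transcript with TICAM2, so its value is uncertain. The listed loci of other members, such as SPCS1, SRP19, SRPR and SSR4, may take in neighbours too, with the same limit.

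Over the 53 members, 32 (60.4%) had all 3 palmitate libraries above all 3 untreated ones, and 0 had the reverse. Among tested genes, 15.1% and 14.6% did. The tables were scaled separately, so these levels are set across scales. The remaining 21 members overlapped.

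Other genes of this route, and genes of related steps at the ER and Golgi, were read from lists chosen along with the 53. Their counts stand beside the 6.59% of all tested genes called higher and 3.84% called lower. Of 22 genes of the COPI coat, its ARF switch and ER-Golgi SNAREs, which run the return traffic and fusion, 10 rose and 0 fell (11 and 0 without small RNA genes), with a median ratio of 0.79. ARFGAP3, a GTPase-activating protein of ARF1, had the largest at 2.05 (adjusted p = 0.0188), from 7.56, 7.34 and 8.04 FPKM to 34.9, 48.4 and 24.9 FPKM, and STX5, a Golgi SNARE, had 1.59 (adjusted p = 0.0408). Of 7 further genes listed with oligosaccharyltransferase, 2 rose. They were MAGT1, an oxidoreductase subunit of the STT3B form (1.32, adjusted p = 0.0295), and OSTC, a subunit of the STT3A form (1.17, adjusted p = 0.0309). Of 23 other ER exit genes 4 rose, led by CNIH4, a cargo receptor (1.27, adjusted p = 0.0287). ERGIC1, of the ER-Golgi intermediate compartment, had -1.12 (adjusted p = 0.0783, and 0.017 without small RNA genes, where it was the 1 gene of this list called lower, against 6 higher).

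The lists on either side of translocation and glycosylation had medians nearer to that of all genes. Of 25 genes that build and first trim the lipid-linked sugar chain, 1 rose, the mannosyltransferase gene ALG2 (0.99, adjusted p = 0.0391), a share no larger than that of all tested genes, and the median was 0.02. Of 21 genes of tail-anchor and membrane insertases, 1 rose, EMC9 (FAM158A in the tables, 0.93, adjusted p = 0.0474), likewise no larger a share, and the median was -0.08. In that list NCLN, a partner of the channel for multi-span proteins, had -1.08 (adjusted p = 0.0709, and 0.0159 without small RNA genes). That fit called 3 insertase genes lower and 2 higher, and the fit with the GC trend removed 3 lower and 3 higher. Together the 98 genes had 18 higher and 0 lower calls and a median of 0.26. Without small RNA genes 24 were called higher and 4 lower (11.3% and 11.1% of all tested genes), and with the GC trend removed 31 higher and 4 lower (15.3% and 12.4%). The difference between these lists and the 53 was not tested.

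RefSeq promoter windows (GRCh38.p14, 250 bases before to 50 after an annotated start) were matched by symbol for 45 members, with 59 windows. The members without one were TRAM1, SRPR, SPCS1, RPN1, STT3B, SEC24D, KDELR2 and TMED9. The windows were searched on both strands for motifs of the unfolded protein response. The core of the XBP1-type element, TGACGTGG, was found in 8 of the 45 members (17.8%): SEC62, SSR3, SSR4, SRP19, SEC16A, SEC23A, SEC24A and KDELR3. It was present in 1.25% of the 7777 tested genes with a window and in 0.729% of all 35116 windows. The ER stress element, CCAAT and CCACG with 9 bases of any kind between them, was found in SERP1 alone among the members, against 0.18% of tested genes and 0.0769% of windows. The ER stress element II, ATTGG and CCACG with 1 base between them, and the CHOP-ATF4 core TGATGCAA were found in 0 members (0.141% and 0.656% of tested genes, 0.0541% and 0.866% of windows). A match describes letters only, and no binding was measured.

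Stretches of 100 bases are shown for 3 called members of different roles (KDELR3, SEC23A and SSR3), for SERP1 with the longer element, and for SEC62, which has the same core and did not pass. Each is given 5′ to 3′ on the gene's strand, with the match in capitals. In KDELR3 (chr22:38467996-38468095, plus strand) the match runs from position -46 to -39, counting the start as 0, and in SSR3 (chr3:156554126-156554225, minus strand) from -41 to -34. In SEC62 (chr3:169966707-169966806, plus strand) it lies at -17 to -10, and in SERP1 (chr3:150546647-150546746, minus strand) at -232 to -214. In SEC23A (chr14:39103232-39103331, minus strand) it spans the start. The SSR3 window belongs to an annotated start inside the gene's span, so its match need not lie in the main promoter.
KDELR3: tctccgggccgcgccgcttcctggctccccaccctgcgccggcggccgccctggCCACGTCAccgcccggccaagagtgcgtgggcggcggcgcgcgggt
SEC23A: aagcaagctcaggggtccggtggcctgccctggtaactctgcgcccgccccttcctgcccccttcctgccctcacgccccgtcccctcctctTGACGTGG
SSR3: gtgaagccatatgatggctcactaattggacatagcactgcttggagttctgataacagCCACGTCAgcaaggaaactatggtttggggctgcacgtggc
SERP1: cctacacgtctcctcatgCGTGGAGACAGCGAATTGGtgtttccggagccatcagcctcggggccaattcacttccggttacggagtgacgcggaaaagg
SEC62: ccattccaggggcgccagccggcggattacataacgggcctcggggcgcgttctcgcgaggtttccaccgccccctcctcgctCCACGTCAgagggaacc

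Set beside these sequences, the ratios to palmitate of the 8 members with the core ran from 0.06 for SEC16A and 0.37 for SEC62 to 2.05 for KDELR3. The members with the largest ratios were SEC24D, KDELR3, TRAM1, SEC23A, SSR2 and SEC11C. KDELR3 and SEC23A (2.05 and 1.58) have the core. For SEC24D and TRAM1 no window was matched, and the windows of SSR2 and SEC11C held none of the 4 motifs. A link between the motifs and the ratios was not tested.

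The comparisons of single libraries that follow had no replicates of their own. Those with an untreated or palmitate-treated WT library reuse it from the WT palmitate ratios above, so they are not independent of these. Each ratio was formed within 1 table and judged by the spread of the WT palmitate ratios between experiments, which takes a lone library to vary as those do. Palmitoleate and palmitate were compared in experiment 1, where they share the untreated library. With palmitoleate, SEC24D was at 8.07 FPKM (8.23 untreated, 40.5 with palmitate), KDELR3 at 11.01 FPKM (10.6 and 34.3) and TRAM1 at 61.3 FPKM (45.5 and 193). SEC23A was at 10.2 FPKM (8.14 and 30.7). All 4 were nearer to their untreated level than to that with palmitate. Against untreated cells limma called 0 members, with 0 at an unadjusted p under 0.05 (0.0542% of tested genes were called higher and 0.0271% lower). The largest ratios were -1.38 for KDELR1 (95% interval -3.10 to 0.33), -1.004 for SEC24C (-2.24 to 0.24), 0.93 for SEC61G (-0.11 to 1.97) and -0.83 for SRPR (-1.91 to 0.26). The members' median was 0.19, with 30 above 0, and became -0.02 when the GC trend was removed. In this ratio the GC trend was the strongest of those read (rho = -0.752 across genes).

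Against palmitate in the same experiment, palmitoleate gave lower levels for 50 of 53 members (47.0% of tested genes), with a median of -0.73. The 4 largest differences were those of SEC24D (-2.19, 95% interval -3.37 to -1.02), TRAM1 (-1.64, -2.56 to -0.72), KDELR3 (-1.56, -2.54 to -0.57) and SEC23A (-1.50, -2.43 to -0.56). limma called 0 members after adjustment (adjusted p = 0.541 to 0.624 for these 4, 0.0542% of tested genes higher and 0.0271% lower). At an unadjusted p under 0.05 there were 17 members, all lower with palmitoleate (4.15% of tested genes). SRP9, SPCS1 and SRP14 were the 3 members with higher values (0.37, 0.18 and 0.17), with intervals that include 0. Palmitoleate alone has no stated dose, so matched doses cannot be shown for this pair.

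Adding palmitoleate to palmitate was examined in experiment 2, where the mixture holds the same 0.2 mM palmitate. This comparison uses a palmitate library that also enters the WT palmitate ratios above, so these sets of values are not independent. SEC24D was at 75.2 FPKM with palmitate, 9.61 FPKM with the mixture and 6.48 FPKM untreated. KDELR3 was at 42.4, 9.65 and 7.80 FPKM in that order, TRAM1 at 134, 35.7 and 29.8 FPKM, and SSR2 at 479.7, 155 and 149 FPKM. In each case the mixture lay near the untreated library. The ratios of mixture to palmitate were -2.84 (95% interval -4.02 to -1.67), -2.03 (-3.01 to -1.04), -1.88 (-2.80 to -0.96) and -1.63 (-2.45 to -0.80). The median of the members was -0.86, and 50 of 53 lay below 0 (46.6% of tested genes). limma called 0 members (adjusted p = 0.175 for these 4, 0.0271% of tested genes higher and 0.0181% lower) and 28 had an unadjusted p under 0.05, all lower with the mixture (9.4% of tested genes). A fit without small RNA and SNAR genes called 8 lower (3.83% of tested genes, with 1.81% higher): SEC24D, KDELR3, TRAM1, SSR2, SEC23A, SEC11C, SEC61B and TMED9. SRP9, at 269 FPKM with palmitate and 515 FPKM with the mixture, had the largest ratio above 0 (0.93, -0.19 to 2.06). By role, the median ran from -1.18 for the translocon-associated complex and -0.95 for the COPII coat to -0.37 for signal peptidase.

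The mixture against untreated cells, from that same experiment, gave 0 calls and 0 members at an unadjusted p under 0.05 (0.0271% of tested genes called higher, 0.0181% lower). The members' ratios ran from -0.40 to 0.50 with a median of -0.08, and 19 were above 0. The largest were those of SEC24D (0.50, 95% interval -0.67 to 1.68), SSR4 (-0.40, -1.42 to 0.62), SEC61B (-0.38, -1.23 to 0.46) and SRP72 (-0.36, -1.25 to 0.53). These intervals do not exclude changes of more than 1.5 times in either direction for SEC24D, so a remaining difference of that size was not detectable.

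**Figure D3:**
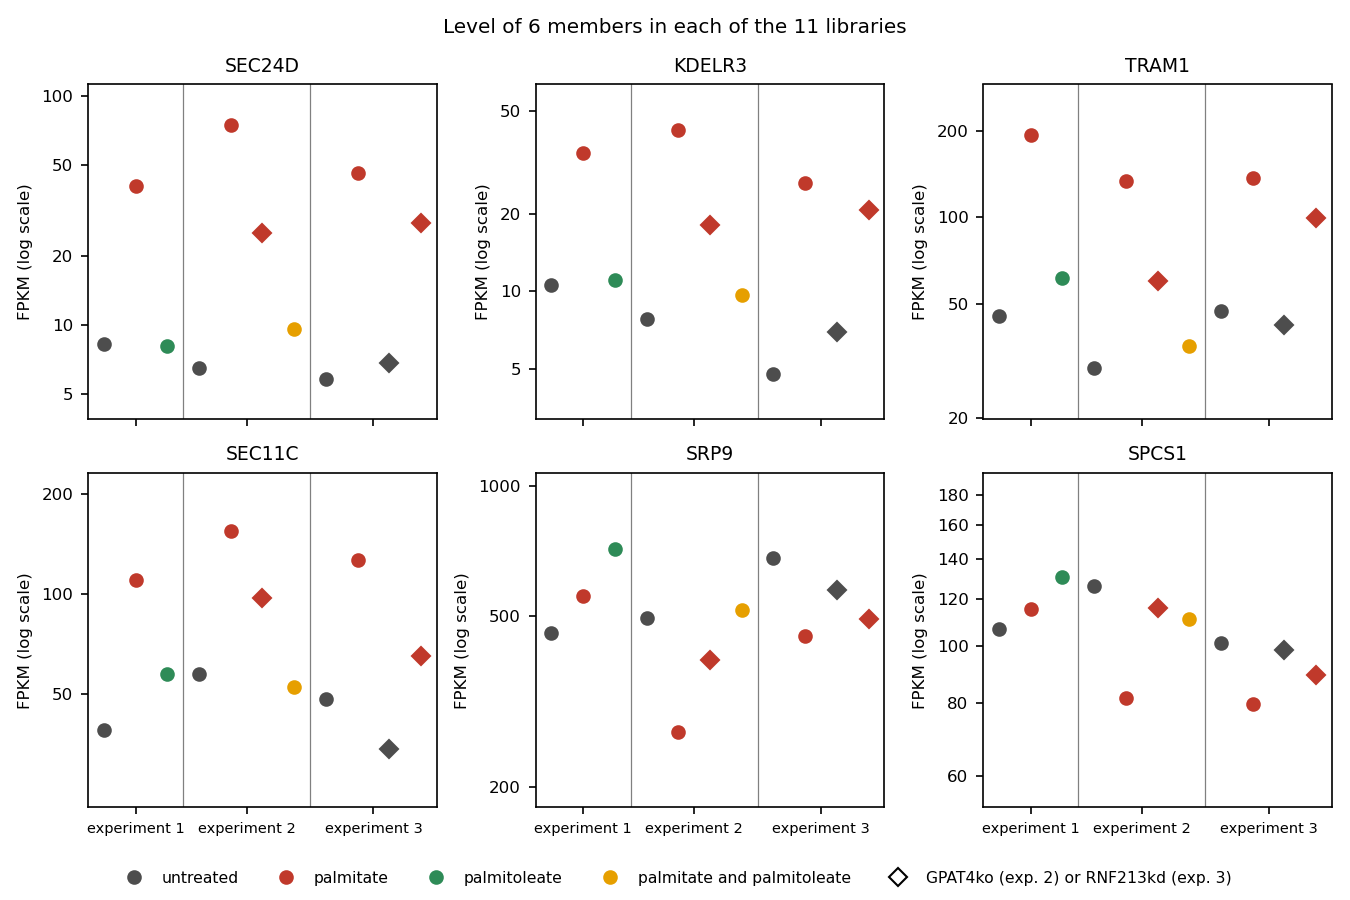
FPKM of 6 members in the 11 libraries (log axis), grouped by experiment, with colour for the fatty acid and diamonds for GPAT4ko or RNF213kd cells. SEC24D, KDELR3, TRAM1 and SEC11C are highest in palmitate-treated WT cells in each experiment, whereas SRP9 and SPCS1 are lowest there in experiments 2 and 3.

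GPAT4ko cells were compared with WT cells under palmitate in experiment 2. SEC24D was at 25.3 FPKM against 75.2 FPKM, KDELR3 at 18.1 against 42.4 FPKM, TRAM1 at 60.2 against 134 FPKM, and SRP54, the GTPase that reads signal sequences, at 39.7 against 98.5 FPKM. The knockout library was lower for each of these genes. The ratios were -1.54 (95% interval -2.71 to -0.36), -1.18 (-2.17 to -0.20), -1.15 (-2.06 to -0.23) and -1.29 (-2.23 to -0.35). Over the members the median was -0.44, and 47 lay below 0 (46.3% of tested genes). limma called 0 members (adjusted p = 0.34 to 0.348 for these 4, 0.0722% of tested genes higher and 0.0% lower), and 5 had an unadjusted p under 0.05, each lower in the knockout (6.9% of tested genes). The fifth was SEC13 (-0.88). HSPA5 was at 784 FPKM in the knockout library and 1451 FPKM in the WT one, a ratio of -0.89 (-1.76 to -0.02). Whether the knockout alters these genes without palmitate was not analysed here, so a difference in the response cannot be told apart from one in the starting level. For SRP54 the knockout value lay below the untreated WT value of the same table too (61.6 FPKM).

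In experiment 3, RNF213kd cells were compared with WT cells without fatty acid. The members' median ratio was -0.02, with 25 members above 0 and 28 below, and limma called 0 members, with 0 at an unadjusted p under 0.05 (0.108% of tested genes were called higher and 0.0271% lower). The largest ratios were those of KDELR1 (0.50, 95% interval -1.22 to 2.21), SEC11C (-0.48, -1.26 to 0.30), SEC61G (-0.48, -1.52 to 0.56) and KDELR3 (0.46, -0.52 to 1.45). Intervals of this width leave room for changes of more than 1.5 times.

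Under palmitate, RNF213kd cells had lower levels than WT cells for 47 of 53 members (43.7% of tested genes), by a median of -0.17. SEC11C was at 64.9 FPKM against 126 FPKM (-0.95, 95% interval -1.73 to -0.17) and was the 1 member at an unadjusted p under 0.05 (0.424% of tested genes). Without fatty acid SEC11C was lower in RNF213kd cells too, at 34.2 FPKM against 48.2 FPKM, so its gap under palmitate is not a difference in response alone. Under palmitate SEC24D was at 28.0 FPKM against 46.1 FPKM (-0.70, -1.87 to 0.48), SSR2 at 227 against 323 FPKM (-0.51, -1.33 to 0.32) and TRAM1 at 99.4 against 137 FPKM (-0.46, -1.37 to 0.46). limma called 0 members (adjusted p = 1.0 for each of the 4, 0.0722% of tested genes higher and 0.0271% lower).

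Within RNF213kd cells palmitate gave a median ratio of 0.44, with 48 of 53 above 0 (45.2% of tested genes). SEC24D was at 6.78 FPKM untreated and 28.0 FPKM with palmitate (1.90, 95% interval 0.72 to 3.08), KDELR3 at 6.95 and 20.6 FPKM (1.44, 0.46 to 2.43), TRAM1 at 42.2 and 99.4 FPKM (1.22, 0.30 to 2.13) and SEC23A at 9.33 and 19.4 FPKM (0.98, 0.05 to 1.92). limma called 0 members (0.0993% of tested genes higher, 0.0903% lower), and 5 had an unadjusted p under 0.05, all higher (2.18% of tested genes). The 5 were these 4 genes and SEC11C, at 34.2 and 64.9 FPKM. The difference between the responses of RNF213kd and WT cells, tested directly, had a median of -0.17 over the members. limma called 0 of them, with 0 at an unadjusted p under 0.05 (0.0722% of tested genes higher, 0.0903% lower). It was -0.95 for KDELR1 (-3.38 to 1.48), -0.89 for SEC24D (-2.55 to 0.77), -0.80 for KDELR3 (-2.19 to 0.59) and -0.65 for SSR2 (-1.81 to 0.52). In the untreated ratio of RNF213kd to WT the GC trend had rho = 0.629 across genes, and with the trends removed the median difference in response was -0.27.

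**Figure D4:**
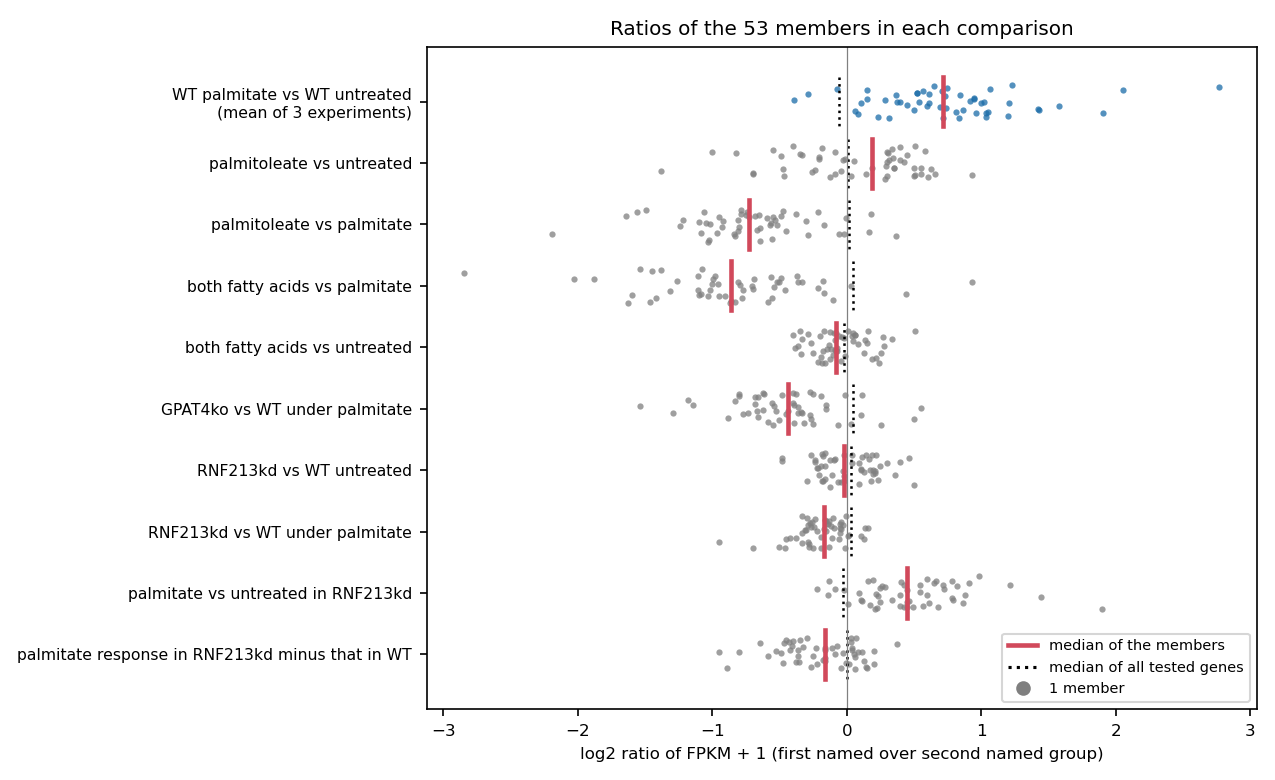
Log2 ratios of the 53 members in each of the 10 comparisons (points, spread vertically at random), with the members' median as a solid bar and that of all tested genes as a dotted bar. The members' median is 0.71 for palmitate in WT cells, -0.73 and -0.86 for palmitoleate or the mixture against palmitate, -0.44 for GPAT4ko against WT cells 0.44 for palmitate within RNF213kd cells, and between -0.17 and 0.19 in the other 5 comparisons.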

How the data were processed

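Gene expression was read from the deposited FPKM values, 1 table per experiment. Per the submitters' processing notes and the labels' protocols, the authors aligned reads with TopHat2 to hg19 and computed FPKM with Cuffdiff (versions not stated), from stranded mRNA libraries that each pooled RNA of 3 biological replicates. FPKM holds no counts, so no depth, count test or counting interval was available. Of 12 labelled libraries 11 were used. The tables hold 2 libraries under names that are not in the labels, and these were left out, although the legend lists one of them as GPAT4-ko.

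From the deposited FPKM, log2(FPKM + 1) ratios were formed within each table, since tables were normalised separately. The filter kept 11075 of 23153 shared genes, those averaging 1 FPKM or more. Rows with symbols turned into dates (26 in each table), with failed or capped values (2, 2 and 6) and with inconsistent repeat listings (2, 0 and 15) were left out. The 3 WT palmitate ratios were fitted with limma 3.58.1 in R 4.3.3 with an intensity trend (2 residual and 3.86 prior degrees of freedom), and p-values were adjusted by Benjamini-Hochberg over all tested genes. A ratio of single libraries was judged by that same variance, and a difference of 2 ratios by 2 times it. Intervals cover 95%. Paralogue shares were compared by an exact permutation test within experiment pairs, chosen after the data were seen. The fit was also run on simulated data with known changes and no GC trend, and the outcome is not given here.

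Untreated and palmitate libraries of one experiment deviated together from their group means (r across genes 0.458, 0.634 and 0.696, against -0.526 to 0.0106 between experiments), and the pairing comes from the experiment in the labels. The members and all gene lists were chosen with earlier results of these data known. Within each role, the 2 members with the largest and the 1 with the smallest absolute mean ratio were named, with all paralogue sets, every member with a mean ratio below 0, the 4 largest ratios of each single-library comparison, and at most 2 genes of each further list. Others are named by their ratio only. Alternatives changed the pseudocount, the filter, centring, the trend, the block by experiment, GC content, small RNA genes and 1 experiment at a time. GC content was that of the longest annotated transcript of each gene, which need not be the form expressed here.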

Additional observations from a re-analysis of the deposited data

How the results depend on the processing

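Between 0 and 36 of the 53 members were called in the WT palmitate comparison across the alternatives, and the members' median ratio stayed between 0.67 and 0.76. Without a filter 0 were called, with a smallest adjusted p of 0.234 (0.0% of all genes called). With the GC trend removed 36 were called (15.3% of tested genes higher). With ratios centred on their median 23 were called (8.7%), and without small RNA and SNAR genes 27 (11.3%). With the pairing by experiment dropped (no replicate block) the count was 9 of 53, with 314 genes called in all. Leaving out experiment 1 or experiment 3 gave 0 calls. Leaving out experiment 2 gave 13 (5.41% of tested genes higher). The cause was not tested, but the fits with 1 experiment less have 1 residual degree of freedom. The fit without experiment 2 gave an infinite prior degree of freedom, so all genes of one level share 1 variance there. For palmitoleate against palmitate, leaving out 1 experiment gave 0 to 1 calls. For the mixture against palmitate it gave 0 to 7, and leaving out small RNA genes gave 8. In the other 7 comparisons the count was 0 under each alternative run. SEC16A had a ratio of 0.3497 without experiment 1, -0.1674 without experiment 2 and -0.0057 without experiment 3. SAR1A had -0.1118 without experiment 1 and 0.1874 without experiment 2. The other 51 members kept the sign of their mean palmitate ratio under each alternative. SEC61A2 has no value with a mean of at least 5 FPKM, and single-library comparisons have none without the block. Depth is unknown, so no limit from counting can be given.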
